A study of Arabidopsis thaliana with 8 samples.

Results

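HAT2 and GH3.3 are auxin response genes of Arabidopsis thaliana, and their transcript levels were followed along the inflorescence stem of wild type plants and of the cov mutant. Each gene was taken by its symbol in the array's probe annotation, which gave 1 probe set for HAT2 (AT5G47370) and 1 for GH3.3 (AT2G23170), so that 2 of 22810 probe sets, or 2 of 13286 genes with a probe set of their own, are described. Both genes had been chosen by measured values, namely their lower signal in cov than in wild type at the stem base, so their levels at the base and every difference that uses the base arrays are given as descriptions without a test. RNA from the stem tip and the stem base was hybridised to ATH1 arrays, with 2 arrays in each of 4 groups. The wild type was Ler-0 (stock code NW20), and the mutant is labelled cov, with no allele, genetic background or clone history given in the sources used here. Plants of both genotypes were sampled at growth stage 6.10 and had been grown on compost, treated with the insecticide Intercept, with light for 24 hours a day, a temperature of 22 °C and 65% humidity. The labels do not say whether the arrays of a group came from separately grown or pooled plants, so p-values measure only the spread between these samples, which may be technical. The series addresses the part played by COV in vascular patterning.

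Auxin is perceived by F-box receptors that promote the destruction of the Aux/IAA repressors, which frees the auxin response factors to switch on early response genes. HAT2 is among these early genes. It codes for a transcription factor of the homeodomain-leucine zipper class II, a family whose members act mostly as repressors and respond to auxin and to shade. GH3.3 is another early gene, and its product is an amido synthetase that joins indole-3-acetic acid to amino acids, a step that lowers the pool of free auxin. In the inflorescence stem, auxin moves from the young tip towards the base through the vascular tissue and guides the formation of vascular strands.

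The values are MAS5 signals on a linear scale, which each array carried already scaled to a common trimmed mean of 100. Array medians ran from 41.4, on wild type base array 1, to 50.1. Replicate arrays correlated at r = 0.959 to 0.978 across the 15923 tested probe sets. Between genotypes at the same stem part r was 0.930 to 0.951, and between stem parts it was 0.664 to 0.823. The 2 named markers of the anther and flower list of 11, AMS (a tapetum regulator) and AT5G07230, summed to 823.2 to 1121.2 on the tip arrays and to 4.8 to 22.9 on the base arrays, so that the tip samples held RNA with these flower transcripts. Of the 16 listed secondary wall markers 3 were named, GUT2, IRX15 and IRX15-L, and they summed to 1235.2 to 2902.4 at the base and 170.2 to 228.4 at the tip. Phloem and epidermis markers had 0 named probe sets, and 0 marker values stood at 0.

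HAT2 was highest in the wild type base and lower in the other 3 groups. Its signal was 612.1 and 735.3 on the wild type base arrays, and 132.3 and 148.4 on the cov base arrays. At the tip it was 74.3 and 77.0 in wild type, and 57.6 and 66.3 in cov. The 4 groups did not overlap, and their order was wild type base, cov base, wild type tip and cov tip. Group means were 673.7 ± 87.1, 140.4 ± 11.4, 75.7 ± 1.91 and 62.0 ± 6.15 in that order (SD, n = 2 arrays each). Relative to the wild type base mean, the cov base stood at 20.8%, the wild type tip at 11.2% and the cov tip at 9.20%. The arrays of a group differed by at most 1.20-fold. The means of the 2 tips, the nearest neighbours in this order, differed 1.22-fold, but their nearest arrays, 74.3 and 66.3, only 1.12-fold.

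GH3.3 was also highest in the wild type base, but its groups lay closer together and its replicates further apart. Its signal was 171.4 and 112.6 on the wild type base arrays, and 89.5 and 65.2 on the wild type tip arrays. In cov it was 31.1 and 41.8 at the tip, and 6.6 and 48.0 at the base. The wild type groups did not overlap each other or either cov group, while the range of the cov base enclosed both cov tip values. Means were 142.0 ± 41.6 in the wild type base, 77.4 ± 17.2 in the wild type tip, 36.5 ± 7.57 in the cov tip and 27.3 ± 29.3 in the cov base (SD, n = 2 arrays each). The cov tip and cov base are neighbours in this order that did not differ beyond their spread. The cov base arrays differed 7.27-fold, against at most 1.52-fold within the other groups, so the mean of that group rests on an array with a signal of 6.6, below the pseudocount of 11.85 that was added before logarithms were taken.

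**Figure D1:**
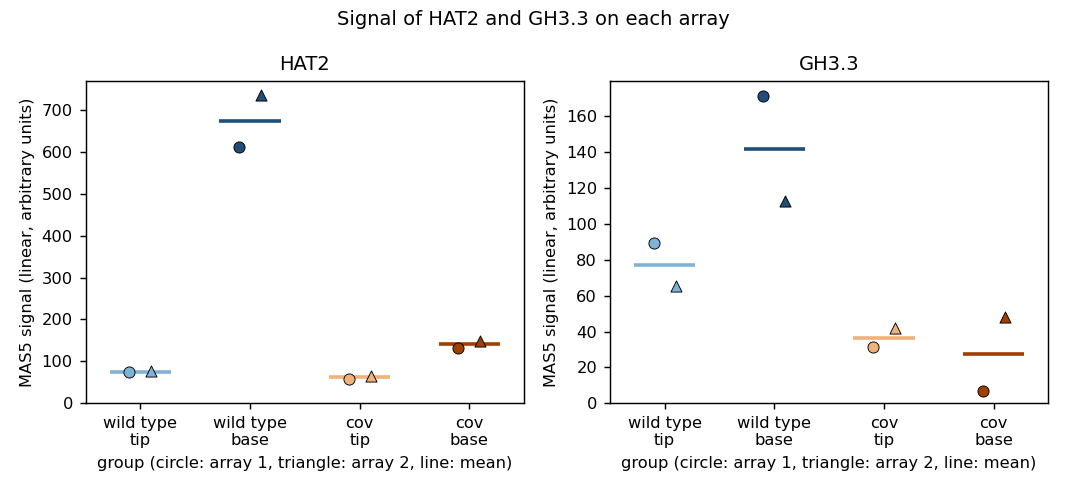
MAS5 signal (linear scale) of HAT2 and GH3.3 on each of the 8 arrays, by group, where circles are array 1, triangles array 2 and lines the mean of 2 arrays. HAT2 stood at 612.1 and 735.3 in the wild type base and at 148.4 or less elsewhere, and GH3.3 was at 65.2 or more on the 4 wild type arrays and at 48.0 or less on the 4 cov arrays.

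Earlier results of these data were known when the genes and tests were chosen. The choice rested on the difference at the base, in which the tip arrays took no part, so the comparison at the tip, cov against wild type, was tested. It was made with limma on log2(signal + 11.85), a scale on which differences of weak signals are drawn toward 0, with p-values adjusted by the Benjamini-Hochberg method over all tested probe sets. HAT2 had a mean of 62.0 in cov against 75.7 in wild type at the tip. Both cov arrays lay below both wild type arrays, and the log2 difference of -0.25 ± 0.16 (SE; 95% limits -0.61 to 0.11) did not pass the threshold of 0.05 (limma, unadjusted p = 0.155, adjusted p = 0.668). GH3.3 had a mean of 36.5 in cov against 77.4 in wild type at the tip, with both cov arrays below both wild type arrays. The share of all probe sets with arrays separated in this way at the tip was not computed. The GH3.3 log2 difference of -0.88 ± 0.44 (95% limits -1.85 to 0.09) did not pass either (limma, unadjusted p = 0.0706, adjusted p = 0.531). Of the 2 genes 0 were therefore called at the tip, where 1.82% of all tested probe sets were called (1.41% higher and 0.408% lower in cov).

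The standard error of GH3.3 comes from all 4 groups, and so includes the wide spread of its cov base arrays. With the tip arrays fitted alone the GH3.3 difference at the tip had an adjusted p of 0.111 (limma), and with cov base array 1 or 2 omitted 0.12 or 0.131, at the same log2 difference of -0.88. Over all omissions of single arrays its adjusted p ranged from 0.12 to 0.985. The 95% limits for HAT2 at the tip leave room for a level in cov up to 1.52-fold lower or 1.08-fold higher, and those for GH3.3 for up to 3.603-fold lower or 1.06-fold higher.

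At the base, where these genes were chosen, the mean signal of HAT2 was 140.4 in cov against 673.7 in wild type, a ratio of 4.80. Depending on which cov and which wild type array are paired, that ratio ran from 4.12 to 5.56. The log2 difference was -2.17 ± 0.16, and it stayed between -2.30 and -2.04 when any single array was left out. For GH3.3 the base means were 27.3 and 142.0, a ratio of 5.20, with single pairs of arrays from 2.35 to 26.0. Its log2 difference was -2.18 ± 0.44. Without cov base array 1 it became -1.34, or 2.52-fold lower, and without cov base array 2 it became -3.03, or 8.19-fold lower. The genes thus had like mean differences at the base under the pseudocount used, with very different precision. With a pseudocount of 1 the log2 differences were -2.25 for HAT2 and -2.86 for GH3.3. With the table median as pseudocount they were -1.94 and -1.38. The arrays of the genotypes did not overlap for either gene at the base, where both genes had been chosen. The share of all probe sets without such overlap was not computed. By limma at an adjusted p under 0.05, 5.53% of all tested probe sets were called at the base. Of these, 545 (3.42% of those tested) were higher and 336 (2.11%) lower in the mutant, which became 396 and 388 after each array was centred on its median. In stem tissue measured in bulk, fewer cells of a type and less RNA per cell cannot be told apart.

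**Figure D2:**
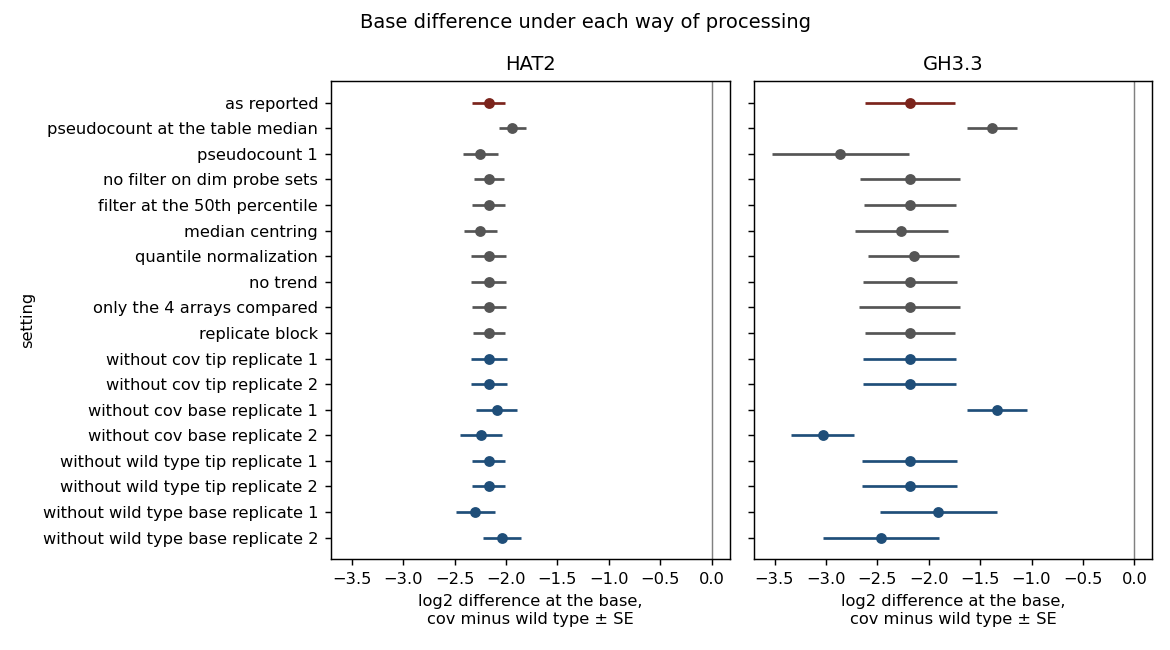
Log2 difference at the stem base, cov minus wild type, with its standard error, for HAT2 and GH3.3 as reported and under each other way of processing or with single arrays left out. HAT2 stayed between -2.30 and -1.94, while GH3.3 moved to -1.34 without cov base array 1 and to -3.03 without cov base array 2.

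The 3 named secondary wall markers had lower means in cov at the base, while at the tip their means were higher in cov. At the base 2 of the 3 were called lower, where 2.11% of all tested probe sets were. At the tip 0 were called, where 1.82% of all tested probe sets were called in either direction. IRX15, needed for xylan in secondary walls, had a mean of 322.4 in cov base against 738.2 in wild type base and fell by 1.18 ± 0.21 on the log2 scale (limma, adjusted p = 0.00884, and 0.0561 without cov base array 1 or 0.0885 without wild type base array 1). IRX15-L fell by 0.72 ± 0.18 (adjusted p = 0.0391, lost in 6 of 8 omissions of an array, with 0.0511 to 0.218 where lost, and 0.0785 with no variance trend, 0.0626 with no filter and 0.11 from the base arrays alone), and GUT2, a xylan synthesis gene, had -0.63 ± 0.20 (adjusted p = 0.106). Summed over these markers the signal was 1235.2 and 1759.2 on the cov base arrays and 2315.5 to 2902.4 on the wild type base arrays. The part of tissue composition in the HAT2 and GH3.3 differences was not tested. The 5 named of 12 procambium and cambium markers went the other way, with sums of 723.4 to 825.8 in cov and 482.5 to 517.9 in wild type at the base, and 2 of the 5 rose, where 3.42% of all tested probe sets were called higher. LHW, which promotes vascular cell divisions, rose by 0.93 ± 0.19 (limma, adjusted p = 0.0152, lost in 3 of 8 omissions, with up to 0.0814). CLE41, a peptide that keeps procambial cells undifferentiated, rose by 0.70 ± 0.16 (adjusted p = 0.0329, lost in 5 of 8 omissions, with up to 0.164, and 0.0701 after median centring).

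Along the stem, HAT2 was higher at the base than at the tip in both genotypes. The wild type means were 673.7 and 75.7, a ratio of 8.91 with single pairs of arrays from 7.95 to 9.90, and a log2 difference of 2.96 ± 0.16. In cov they were 140.4 and 62.0, a ratio of 2.27 with single pairs from 1.995 to 2.58, and a log2 difference of 1.04 ± 0.16. The difference between these log2 differences, cov minus wild type, was -1.92 ± 0.23. Centring each array on its median moved the median of all probe sets by 0.12 in the wild type comparison, and the HAT2 log2 difference there from 2.96 to 3.09. The tip samples held the flower transcripts given above. The part of flower tissue in the steps along the stem, for HAT2 and for the genes below, was not tested.

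GH3.3 had a shallower step in wild type, with means of 142.0 at the base and 77.4 at the tip, a ratio of 1.84 and a log2 difference of 0.77 ± 0.44. In cov its means were 27.3 at the base and 36.5 at the tip, with overlapping arrays and a log2 difference of -0.53 ± 0.44. That value changed sign to 0.32 without cov base array 1. The difference between the GH3.3 log2 differences, cov minus wild type, was -1.30 ± 0.62, and ranged from -2.15 without cov base array 2 to -0.45 without cov base array 1. HAT2 arrays of base and tip did not overlap in either genotype, and GH3.3 arrays of base and tip did not overlap in wild type but did in cov. By limma, a measure other than overlap, base and tip differed for 46.4% of all tested probe sets in wild type (22% higher and 24.4% lower at the base). In cov they differed for 31.3% (15.4% and 15.8%). After median centring the balance turned, from 3510 higher and 3881 lower to 4129 and 3258 in wild type, and from 2455 and 2523 to 2708 and 2211 in cov.

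The other members of the HAT2 family, 9 listed class II genes, had 0 named probe sets in the annotation, as had the listed auxin response factors, receptors, transporters and SAUR genes. Of 178 listed genes of auxin synthesis, transport, perception, response and inactivation besides HAT2 and GH3.3, 27 had a named probe set and 11 passed the filter on mean signal, while 16 were too dim. Of these 11, 0 were called between the genotypes at the tip or at the base (limma), and 1 in each comparison had an unadjusted p under 0.05. With 1.82% and 5.53% of all tested probe sets called at the tip and the base, a list of 11 with 0 calls is near that background. Their median log2 difference was -0.06 at the tip and -0.07 at the base, beside 0.01 and 0.02 over all tested probe sets. The base differences of the 11 ran from -0.66 for IAA30 to 0.56 for GH3.9.

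GH3.3 has 10 relatives in the GH3 list with a named probe set, of which 6 were too dim to test. Among those dim ones GH3.1 did not exceed 5.2 and GH3.17 did not exceed 13.5 on any array. WES1, also known as GH3.5, a conjugating enzyme that acts on auxin and salicylic acid, was nearly level, with all 8 arrays between 131.6 and 219.5. Its log2 difference at the base was 0.12 ± 0.18 (limma, adjusted p = 0.796). GH3.9 was 18.7 and 30.7 on the wild type base arrays and 45.5 and 37.3 on the cov base arrays. Its base difference of 0.56 ± 0.26 was opposite in sign to that of GH3.3 and did not pass (adjusted p = 0.266). Towards the base of the wild type, GH3.9 fell by 1.01 ± 0.26 (adjusted p = 0.00740, and 0.0767 without wild type tip array 1 or 0.0624 without wild type base array 1). AT5G13380 was high at the tip, at 250.1 and 267.7 in wild type and 180.9 and 151.3 in cov, against 31.4 or less at the base. Towards the base AT5G13380 fell by 3.03 ± 0.34 in wild type (limma, adjusted p = 3.19e-05) and fell by 2.98 ± 0.34 in cov (adjusted p = 8.46e-05). AT5G13350 had wide replicates, at 5.4 and 44.8 in the wild type base, and was not called in any comparison. None of the tested relatives therefore had the order of groups seen for GH3.3.

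Along the stem, 3 of the 11 listed genes rose towards the base and 3 fell in wild type, and 3 rose and 2 fell in cov. The 6 calls in wild type and 5 in cov stand beside the shares of 46.4% and 31.3% called over all tested probe sets. IAA18, an Aux/IAA repressor of auxin response, was 239.5 and 228.7 in the wild type base and 79.2 and 87.2 in the wild type tip, a rise of 1.37 ± 0.19 (limma, adjusted p = 0.000166). In the cov base IAA18 was 197.8 and 298.5, which enclosed the wild type values, and its rise in cov was 0.90 ± 0.19 (adjusted p = 0.00455). IAA30, an Aux/IAA protein without the degron that auxin receptors bind, was 49.0 and 52.6 in the wild type base and 25.4 and 30.4 in the cov base. It rose towards the base by 1.25 ± 0.28 in wild type (adjusted p = 0.00354) and by 0.90 ± 0.28 in cov (adjusted p = 0.0307, but 0.23 without cov tip array 1 and 0.0667 or 0.12 without cov base array 1 or 2). Its base difference between the genotypes, -0.66 ± 0.28, had the same sign as that of HAT2 but did not pass (adjusted p = 0.226).

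AT1G14130, from the list on inactivation, rose towards the base by 0.91 ± 0.18 in wild type (limma, adjusted p = 0.00207) and by 0.82 ± 0.18 in cov (adjusted p = 0.00625, and 0.0745 without cov tip array 1). UGT74D1, a glucosyltransferase that acts on auxin, fell by 0.99 ± 0.21 in wild type (adjusted p = 0.00322) and fell by 0.63 ± 0.21 in cov (adjusted p = 0.0472, lost in 6 of 8 omissions, with up to 0.22). Outside the GH3 list 3 tested genes were not called in any comparison, and they are named here after their values were seen: the auxin synthesis gene YUC2, a flavin monooxygenase, the lateral organ boundaries gene LBD16, and AT5G66940. The median over the 11 genes was -0.23 in wild type and -0.24 in cov, beside -0.01 and 0.00 over all tested probe sets. In none of the 11 did the step along the stem pass a test of its difference between the genotypes, in which 2.15% of all tested probe sets were called (limma, lowest adjusted p = 0.469, and 0 at an unadjusted p under 0.05).

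**Figure D3:**
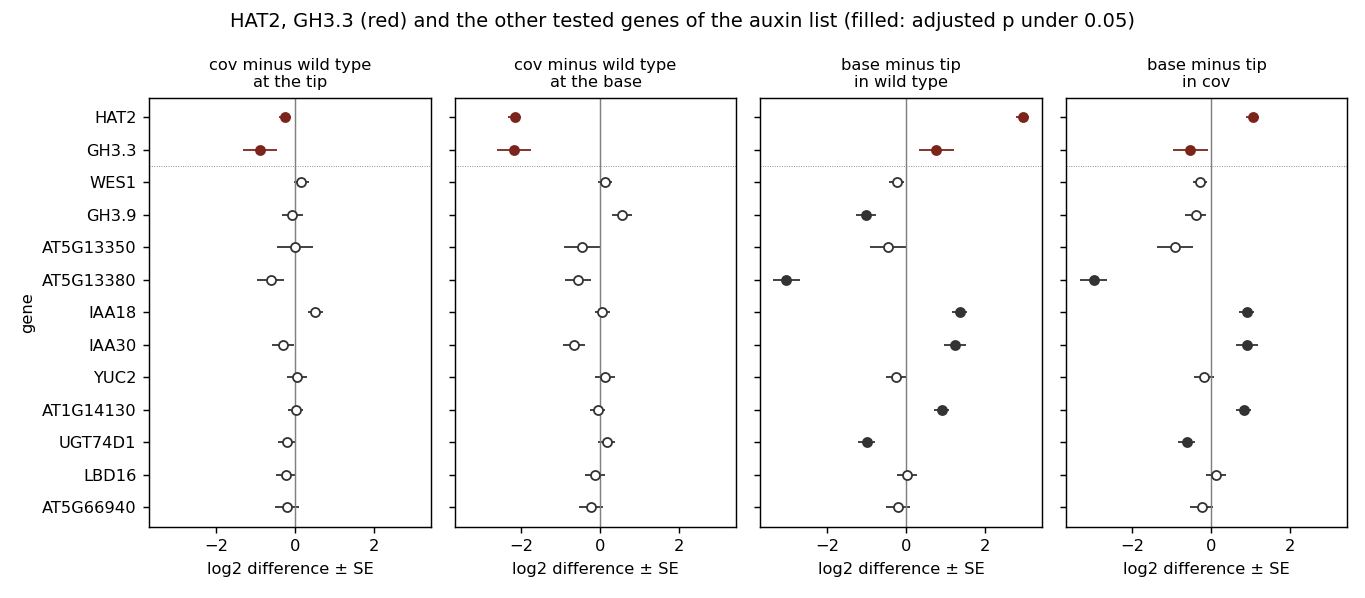
Log2 differences with standard errors for HAT2 and GH3.3 (red, shown without a call) and the 11 other tested genes of the auxin list (filled circles have an adjusted p under 0.05 by limma) in 4 comparisons. HAT2 and GH3.3 lie near -2.2 at the base, where the other 11 run from -0.66 to 0.56 and 0 are called.

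The probe sets most like HAT2 and GH3.3 in profile were found by Pearson's r of log2(signal + 11.85) over the 8 arrays, which share 4 groups. These values describe the profiles, and the base arrays that led to the choice of HAT2 and GH3.3 contribute to them. HAT2 had 149 of 15922 other tested probe sets at r of 0.95 or more, 68 of them with 1 named gene, and GH3.3 had 4, all with 1 named gene. Between HAT2 and GH3.3 themselves r was 0.57, which placed GH3.3 at rank 2328 of 8777 named probe sets by likeness to HAT2, and HAT2 at rank 484 by likeness to GH3.3.

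The 6 named genes most like HAT2 were AT1G21050 (r = 0.997), AT2G46550 (0.991), ATCOAE (0.985), AT5G42090 (0.985), AT5G14120 (0.983) and RTH (0.983). ATCOAE codes for an enzyme of coenzyme A synthesis, and RTH is a homologue of a regulator of ethylene receptors. AT1G21050 was 270.5 and 308.7 in the wild type base and 161.6 and 162.6 in the cov base. At the tip it was 123.8 and 126.7 in wild type and 108.1 and 117.7 in cov, the same order of groups as HAT2. The steps were smaller, since r takes no account of size. The wild type step from tip to base was 1.13 ± 0.15 for AT1G21050 and 0.69 to 1.33 over the 6 genes, against 2.96 for HAT2. At the base, wild type exceeded cov 1.45-fold to 1.83-fold in mean signal for these 6, against 4.80-fold for HAT2.

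The 6 named genes most like GH3.3 were AT5G41940 (r = 0.963), AT4G33500 (0.959), AT3G62820 (0.956), AT1G12250 (0.955), AT1G14890 (0.928) and AT4G16444 (0.921). Each of these 6 was lower on cov base array 1 than on cov base array 2, as GH3.3 was. They were picked by r over these same arrays, so this dip came in part with the choice. The 6 genes most like HAT2 were also lower on array 1, some only slightly, as AT1G21050 at 161.6 against 162.6. The share of all probe sets lower on array 1 was not computed. AT5G41940 was 27.4 and 52.7 on cov base arrays 1 and 2, and 66.0 and 61.8 in the wild type base. AT3G62820 had the widest base ratio of the 6 genes most like GH3.3, 2.12, with 80.5 and 127.2 in cov against 225.1 and 215.1 in wild type. Over the 7 arrays without cov base array 1, which was tried after the profiles had been seen, r for these 6 genes ran from 0.82 to 0.98. For the 6 genes most like HAT2 it ran from 0.983 to 0.998.

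**Figure D4:**
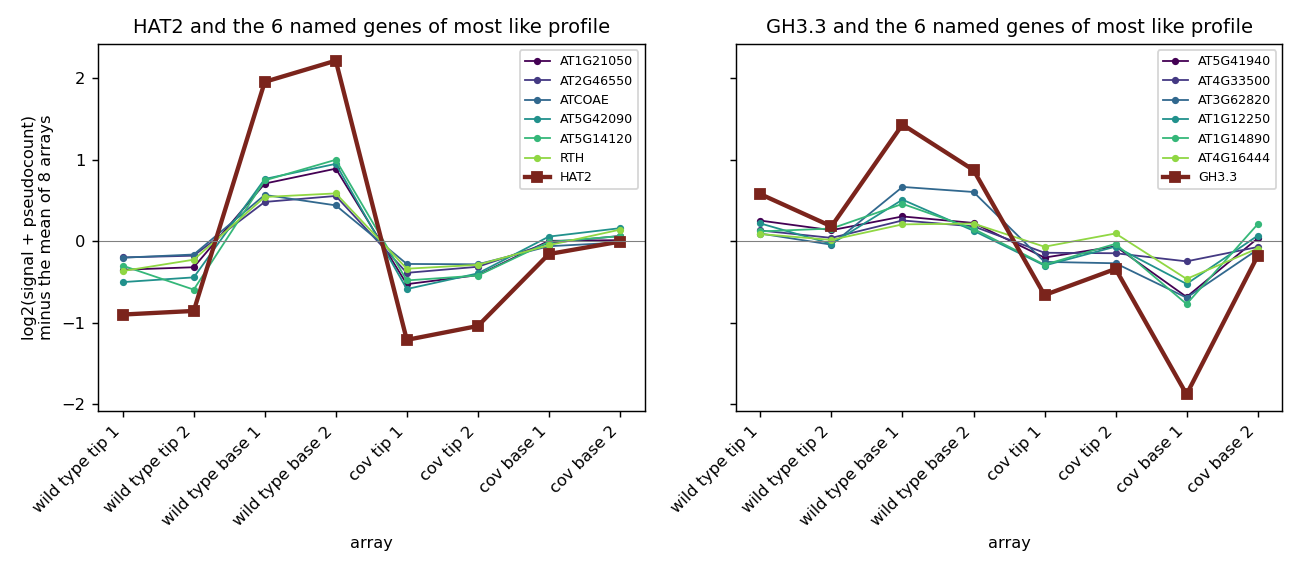
Log2(signal + 11.85) minus each gene's mean of 8 arrays, for HAT2 (left) and GH3.3 (right) in red with the 6 named genes of highest Pearson r. The genes like HAT2 rise in the wild type base by less than HAT2 does, and all 6 genes like GH3.3 dip on cov base array 1.

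The genes beside HAT2 and GH3.3 on the chromosome were taken from RefSeq's order of protein-coding genes (assembly TAIR10.1), 5 on each side. Around HAT2 there were 10 named probe sets, of which 7 were tested. AT5G47400 had more than 1 of them, and not every neighbouring gene had one. Of those tested 1 was called at the base, AT5G47330, named because it is the single call, where 5.53% of all tested probe sets were called. AT5G47330 had a mean of 38.4 in the cov base and 80.95 in the wild type base, and fell by 0.88 ± 0.21 (limma, adjusted p = 0.0371, lost in 6 of 8 omissions of an array, with up to 0.194). The other tested neighbours of HAT2 had base differences from -0.32 to 0.46, beside -2.17 for HAT2, which was chosen for its base difference. A part of the region in that difference was not tested. Around GH3.3 only 3 probe sets were named and 1 was tested, AT2G23200, again named for being the single one. AT2G23200 was higher in cov at the tip by 0.92 ± 0.20 (adjusted p = 0.0484, lost in each of 8 omissions) and had a base difference of 0.44 ± 0.20 (adjusted p = 0.268), opposite in sign to that of GH3.3.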

How the data were processed

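MAS5 signal intensity on a linear scale was deposited by the authors for each array, per the submitters' processing notes. Which MAS5 version was run is not given in the sources used here, and no detection calls were used. Of its 22810 probe sets the table gave 91 values of 0, and it had 0 columns of no sample. The mean after trimming 2% at each end was 100 on every array, and no further scaling was applied. The 64 controls were left out. The annotation gave 1 gene for 13513 probe sets, several for 503 and none for 8730, and 13436 were matched to RefSeq (TAIR10.1) for current names. No sequences are shown.

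A pseudocount of 11.85 (0.25 of the table median) was added before log2, and probe sets with a mean signal below 21.36 (30th percentile, 6823 probe sets) were left out, which left 15923. limma 3.58.1 in R 4.3.3 fitted 4 group means over all 8 arrays, with eBayes and a variance trend (4 residual degrees of freedom, median total 10.6). P-values are two-sided and adjusted by Benjamini-Hochberg per contrast. With 2 arrays per group, their number limits the precision. The same fit was also run on data simulated from the means and spread of these arrays, with results not given here.

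HAT2, GH3.3, the tests and the gene lists were chosen with earlier results of these data known. Named are HAT2, GH3.3, the measured genes of their families, called genes of the auxin list (at most 4 per role and contrast), markers, and the 6 genes of most like profile. Neighbouring genes were added after the values had been seen. Alternatives were 2 other pseudocounts, 2 other filters, median centring, quantile normalization, no variance trend, a fit of only the arrays compared, a replicate block, and each array left out.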

Additional observations from a re-analysis of the deposited data

Results flagged for a closer look

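IRX15, the secondary wall xylan gene used beside HAT2 and GH3.3 as a marker, differed between the genotypes by unequal amounts in the stem parts. Its log2 difference of the differences was -1.46 ± 0.30 (limma, adjusted p = 0.0364), and the call was lost in 7 of 8 omissions of an array, with adjusted p from 0.0574 to 0.138 where lost.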

How the results depend on the processing

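HAT2 and GH3.3 kept their direction at the tip and at the base in every alternative run, and 0 of them were called at the tip in any. With the pseudocount at the table median the HAT2 log2 differences moved to -1.94 at the base, 2.55 along the wild type stem, 0.78 along the cov stem and -1.77 for the difference between these. With a pseudocount of 1 the steps along the stem were 3.132 and 1.17. For GH3.3 at the base these pseudocounts gave -1.38 and -2.86. Over omissions of single arrays the difference of the differences ran from -2.05 to -1.79 for HAT2 and from -2.15 to -0.45 for GH3.3, and the GH3.3 step along the cov stem from -1.38 to 0.32. The cause was not tested. Calls over all probe sets ranged over these omissions from 116 to 350 at the tip (290 with all arrays; omitting cov tip array 1 or 2 gave 116 or 132, and omitting wild type tip array 1 or 2 gave 181 or 176), from 440 (without wild type base array 1) to 873 at the base, from 2870 to 5062 along the cov stem (2870 and 3263 with cov tip array 1 and 2 omitted), and from 111 to 465 for the difference of the differences, each omission leaving fewer arrays. A fit of only the arrays compared gave 490 calls at the base. For the difference of the differences 342 calls became 139 with no filter and 227 with no trend. Of the auxin list, 6 genes called along the wild type stem became 3 with a filter at the 50th percentile, which tests fewer genes, and 5 along the cov stem became 3 with that filter, 3 in the fit of only the arrays compared, and 2 to 6 with single arrays omitted (2 without cov tip array 1, 3 without cov base array 1 or 2).

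Replicate numbers 1 and 2 recur in every group, but the labels do not say that they pair samples, and the deviations of same-numbered arrays correlated at -0.04 to 0.16 between groups. With the number as a replicate block, calls were 299 at the tip, 890 at the base, 7366 and 4923 along the stem in wild type and cov, and 326 for the difference of the differences. The HAT2 and GH3.3 adjusted p at the tip were 0.648 and 0.529 with the block. In the block fit 4 auxin list genes were called along the cov stem instead of 5. The gene not called with the block was UGT74D1 (adjusted p = 0.0571), and the block also ended the IRX15-L call at the base (0.0512). Of all fits that gave a value, the reported one, alternatives and omissions together, the call was absent at the base in 10 of 18 for IRX15-L, 8 of 18 for CLE41, 4 of 18 for LHW and 9 of 17 for AT5G47330, at the tip in 14 of 18 for AT2G23200, along the cov stem in 12 of 17 for UGT74D1 and 4 of 17 for IAA30, and in 10 of 17 for the IRX15 difference of the differences.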

Other observations

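IAA20, an Aux/IAA gene without the degron that auxin receptors bind, was too dim to pass the filter, with a mean signal of 10.8 over all arrays, and is named here because its values were seen. It was 24.3 and 30.7 on the wild type base arrays, and 3.8 and 5.0 on the cov base arrays. At the tip IAA20 was 3.1 and 15.6 in wild type and 1.0 and 2.6 in cov. With no filter on dim probe sets its base difference was -1.27 ± 0.27 and did not pass (limma, adjusted p = 0.0508), while its rise along the wild type stem was 0.95 ± 0.27 (adjusted p = 0.0282). Of the 16 dim genes of the auxin list tested in this way, 0 were called between the genotypes at either stem part, and 1 had an unadjusted p under 0.05 at the base and 0 at the tip. Along the wild type stem 2 of the 16 were called, IAA20 and GH3.17, and along the cov stem 1, GH3.17. In that fit 7449 of 22746 probe sets were called along the wild type stem and 4677 along the cov stem. GH3.17 had base minus tip differences of -0.80 ± 0.16 in wild type (limma, adjusted p = 0.00542) and -0.79 ± 0.16 in cov (adjusted p = 0.00959).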
